A study of Macaca mulatta with 2 samples.

Results

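The 8 genes described here encode 7 integrin chains and 1 integrin ligand of circulating CD4+CD8+ (DP) T cells of the rhesus monkey: the alpha chains ITGA1, ITGA4, ITGAL and ITGAE, the beta chains ITGB1, ITGB2 and ITGB7, and the ligand ICAM2. They were taken by symbol from the 35432 genes measured, each symbol matched 1 gene, and the rule itself uses no measured value. The authors' paper on these same cells names ICAM2, ITGA1 and ITGA4 for its CCR9+ helper-like subset. Their link with CCR9 was thus already reported from these data. The cells came from the blood of 1 untreated male monkey aged 6 years and were sorted with magnetic beads, first for CD4 and then for CD8. An RNA library and a library of antibody tags against CD4 and CD8 were made from these cells, and both share the same 7923 barcodes, none of them repeated. Counts are unique molecular identifiers (UMIs), so that copies of a captured RNA molecule are counted once.

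The levels were read in CD3E+ cells, which carry at least 1 UMI of the T cell receptor subunit CD3E. There were 7311 of them among the 7601 barcodes kept, with a median of 3656 UMIs (quartiles 3001 and 4720). All 3 CD3 genes had UMIs in these cells. Since the CD3E gate asks for a T cell transcript, the presence of CD3E is set by it. With 1 animal there is no biological replicate and no test. Brackets hold exact 95% intervals, which cover counting error only.

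Integrins are heterodimers of an alpha and a beta chain that hold leukocytes to vessel walls, matrix and other cells, and neither chain reaches the surface without a partner. ITGAL pairs with ITGB2 to form LFA-1, which binds intercellular adhesion molecules such as ICAM2 on endothelium and leukocytes. ITGA4 pairs with ITGB1 to form VLA-4, a receptor for VCAM1 and fibronectin, or with ITGB7 to form the gut homing receptor for MADCAM1. ITGAE also pairs with ITGB7 and binds E-cadherin on epithelium, and ITGA1 pairs with ITGB1 and binds collagen. CCR9, the receptor for the small intestinal chemokine CCL25, is carried together with the ITGA4-ITGB7 receptor by T cells that home to the small intestine.

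Cells were split by raw UMIs of 7 genes. CCR9+ cells (479), CCR6+ cells (557) and CCR7+ cells (2163) carry at least 1 UMI of a chemokine receptor for the small intestine, for mucosa and inflamed tissue, or for lymph nodes. GZMB+ cells (2770) carry at least 3 UMIs of the cytotoxic protease granzyme B, a minimum set higher because that transcript is so abundant. CX3CR1+ cells (1269) carry the fractalkine receptor of cytotoxic effector cells. TRAV10+ cells (247) carry a T cell receptor alpha segment, and EOMES+ cells (356) a transcription factor of cytotoxic and memory T cells. A cell without a UMI may still express the gene. The gates overlap: 42.8% of CCR9+ cells were CCR7+ and 19.8% were CCR6+, 91.6% of CX3CR1+ cells were GZMB+, and 34.0% of TRAV10+ cells were GZMB+. Gates by receptors also took deeper cells, with a median of 4798 UMIs in CCR9+ against 3591.5 in CCR9-negative cells, 4937 against 3582 for CCR6 and 4377 against 3451 for CCR7. GZMB+ cells were shallower, at 3303 against 3951. Levels are therefore counts per 1000000 UMIs of a group (CPM), and shares of cells with a UMI were read after each cell had been thinned to 2000 UMIs.

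Markers of other cells moved with some of the gates. The 5 B cell genes all had UMIs in the receptor and EOMES gates, at 149 CPM in CCR9+ against 67.4 in CCR9-negative cells, 162 against 64.4 for CCR6, 130.2 against 44.2 for CCR7 and 145 against 70.8 for EOMES. The 4 NK cell genes summed to 167 CPM in GZMB+ against 20.02 in GZMB-negative cells, with NCAM1 at 0 in GZMB+ cells. The 3 red blood cell genes stood at 8.65 CPM in CCR9+ against 264 in CCR9-negative cells and at 107 against 316 for GZMB. By share of cells with 3 or more UMIs of these genes, the GZMB gate ran the other way. That share was 3.105% of GZMB+ against 0.0881% of GZMB-negative cells, and 0.418% against 1.29% for CCR9. The summed level of these genes is therefore not read as how many cells carried them. Monocyte genes stayed between 2.34 and 4.50 CPM and platelet genes between 0 and 1.93 CPM in the 7 gates, and the plasmacytoid dendritic cell gene found was at 0. Without cells that hold 3 or more UMIs of the B cell genes, all 23 of the member ratios past 1.5-fold kept that size and direction. The part of NK and red blood cell genes in the results was not tested.

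In the RefSeq annotation of Mmul_10, ITGA1 lies at chr6:51072315-51242993 (plus strand), ITGA4 at chr12:68549838-68628387 (plus), ITGAL at chr20:27879019-27931261 (plus) and ITGAE at chr16:3494394-3585814 (minus). The beta chains ITGB1, ITGB2 and ITGB7 lie at chr9:33839760-33899196 (minus), chr3:1782781-1829450 (plus) and chr11:52754336-52772748 (minus), and ICAM2 at chr16:60561289-60580883 (minus). PELO, a ribosome rescue factor, lies within ITGA1 on the same strand. It had 591 UMIs in CD3E+ cells against 803 of ITGA1, and a log2 ratio of 0.79 [0.45 to 1.13] in CCR9+ over CCR9-negative cells. PRR29 overlaps ICAM2 on the other strand, with 116 UMIs against 3860 and a log2 ratio of 2.55 [1.97 to 3.12] in the same comparison, on few counts. CERKL overlaps ITGA4 and HASPIN overlaps ITGAE on the other strand, with 165 and 22 UMIs. Whether reads in overlapping genes were assigned by strand is not given in the sources used. How far the reads of such pairs were kept apart was not tested.

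The sequences shown are the 250 bases before the first annotated start of ITGB2 and ITGA1, whose levels lay in opposite directions in the CCR9, CCR6, CCR7, GZMB and CX3CR1 gates, 5′ to 3′ on the gene's strand. In the CCR7 gate ITGA1 differed by less than 1.5-fold. ITGA1 has 1 annotated start, and ITGB2 has 5 spread over 20931 bases, so that the ITGB2 window may not be the start used in these cells. Capitals mark matches to any of 7 motifs searched on both strands: TGTGGT for RUNX factors, CCGGAAG and the shorter AGGAAG for ETS factors, GGGCGG for SP and KLF factors, CACCTG as an E-box, TGANTCA for AP-1 and AGGTGT for T-box factors. The motifs were chosen with the sequences in view, and no 2 matches overlapped.
ITGB2, chr3:1782531-1782780, plus strand: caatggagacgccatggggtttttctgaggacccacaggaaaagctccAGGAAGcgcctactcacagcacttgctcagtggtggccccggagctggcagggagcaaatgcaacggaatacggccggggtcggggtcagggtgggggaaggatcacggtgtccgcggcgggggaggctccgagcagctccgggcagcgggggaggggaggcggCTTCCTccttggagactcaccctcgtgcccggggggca
ITGA1, chr6:51072065-51072314, plus strand: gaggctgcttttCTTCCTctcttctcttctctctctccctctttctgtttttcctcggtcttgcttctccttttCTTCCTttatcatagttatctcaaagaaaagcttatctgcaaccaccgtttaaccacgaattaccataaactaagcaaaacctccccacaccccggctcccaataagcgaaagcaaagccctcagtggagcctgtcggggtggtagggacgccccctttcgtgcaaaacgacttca

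The short ETS core AGGAAG was present in both windows, as in 25.7% of the same windows of 20787 protein-coding genes. It began 202 and 38 bases before the start in ITGB2 and 238 and 176 bases before it in ITGA1. The other 6 motifs were found in neither window. They were found in 11.2% (RUNX), 7.05% (the longer ETS motif), 43.7% (SP and KLF), 19.4% (E-box), 5.15% (AP-1) and 10.2% (T-box) of all windows. Of the windows not shown, ITGAL, ITGB1 and ICAM2 also held the short ETS core. ITGA4, ITGB1 and ITGB7 held GGGCGG, and ICAM2 held TGTGGT. The short ETS core was thus in 5 of 8 windows against 25.7% of all windows. GGGCGG was in 3 of 8 against 43.7%, and TGTGGT in 1 of 8 against 11.2%. A match is a stretch of letters and not a shown site.

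The levels of the 8 genes followed 3 patterns across the gates. ITGAL and ITGB2 were high in GZMB+ and CX3CR1+ cells and low in CCR9+, CCR6+ and CCR7+ cells. ITGA1 and ICAM2 ran the other way, though ITGA1 stayed inside 1.5-fold in CCR7+ cells (log2 ratio 0.27 [0.06 to 0.47]). ITGB1 and ITGB7 parted from each other in CCR9+ cells. ITGA4 and ITGAE stayed within 1.5-fold of the gate-negative cells in all 7 gates.

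**Figure D1:**
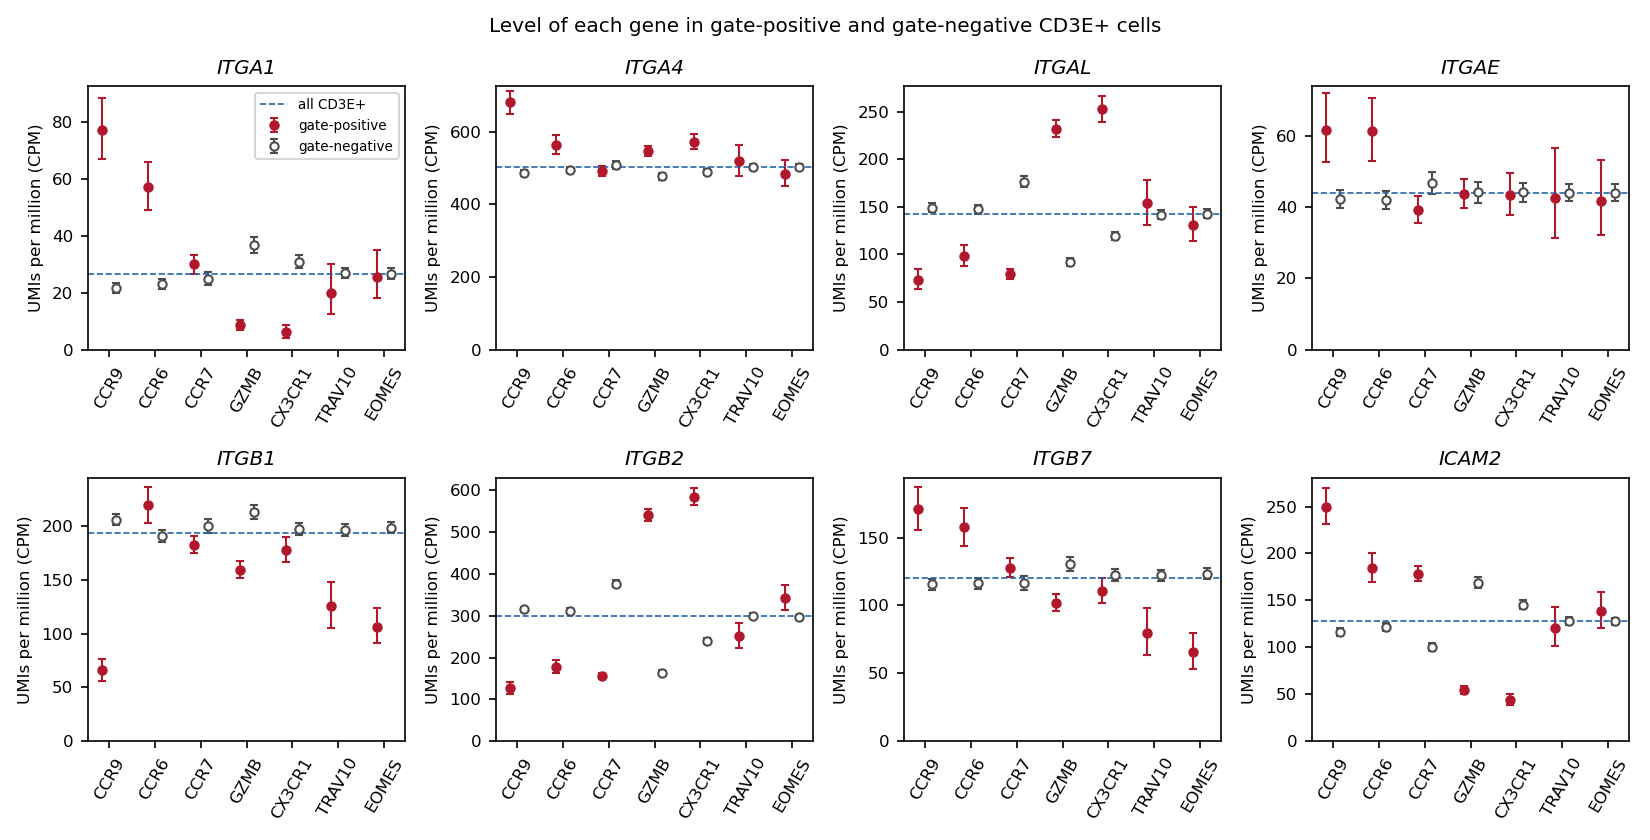
Level of each gene in CPM (y axis, from 0) in the positive (filled) and negative (open) cells of each of 7 gates (x axis), with exact 95% Poisson intervals, and the level in all CD3E+ cells as a dashed line. ITGA1 and ICAM2 are highest in CCR9+ cells (77.1 and 249.6 CPM), ITGAL and ITGB2 in CX3CR1+ cells (252 and 584 CPM), and ITGB1 is lowest in CCR9+ cells (65.8 CPM).

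Among the alpha chains, ITGA4 was detected in most cells of every gate, at 502 CPM [494 to 511] over all CD3E+ cells. It was highest of the 7 gates in CCR9+ cells, at 681 CPM [650 to 713], followed by CX3CR1+ (572), CCR6+ (564), GZMB+ (547), TRAV10+ (519), CCR7+ (491) and EOMES+ cells (485). From CX3CR1+ cells downwards each interval overlapped that of the next gate, so that neighbours in this order were not told apart. In CCR9+ cells 92.5% had a raw ITGA4 UMI and 44.9% had 4 or more, with a mean of 3.78 per cell, against 2.07 over all CD3E+ cells. After thinning, 71.2% of CCR9+ cells had a UMI, against 55.3% of CCR9-negative cells. The log2 ratio was 0.49 [0.42 to 0.56] in the CCR9 gate, and between -0.05 and 0.23 in the other 6.

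ITGA1, the alpha chain of the collagen receptor, had 803 UMIs in all CD3E+ cells (26.7 CPM [24.9 to 28.6]). It stood at 77.1 CPM [66.9 to 88.4] in CCR9+ and 57.1 [49.1 to 66.1] in CCR6+ cells. CCR7+ (29.9), EOMES+ (25.7) and TRAV10+ cells (19.9) followed with overlapping intervals, and GZMB+ (8.57) and CX3CR1+ cells (6.24) were lowest. As a fold, the range from the lowest to the highest gate was wider for ITGA1 than for the other 7 genes. Its low end lies in CX3CR1+ cells, whose ITGA1 share is not read as expression, so the width of that range is not a measured one. The transcript was found in 12.9% of thinned CCR9+ cells against 3.68% of CCR9-negative cells, and in 1.24% of GZMB+ against 6.17% of GZMB-negative cells. Of CCR9+ cells, 19.4% had 1 raw ITGA1 UMI, 3.97% had 2, 1.88% had 3 and 2.30% had 4 or more. No ITGA1 UMI was found in 86 barcodes with B cell genes and no CD3 gene. After thinning 79 of them were left, which allows a thinned share of up to 4.56% by the exact interval. The 1.24% of GZMB+ and 1.32% of CX3CR1+ cells lie under that limit and are not read as expression. The 2.95% of TRAV10+, 4.37% of EOMES+, 3.68% of CCR9-negative and 4.28% of all CD3E+ cells lie under it too. By level, the same barcodes allow up to 9.29 CPM, and the values of GZMB+ and CX3CR1+ cells lie under that as well. TRAV10+ [12.5 to 30.1], EOMES+ [18.4 to 35.0], CCR9-negative [20.1 to 23.6] and all CD3E+ cells lie above it. For these 4 groups the share alone does not separate them from the barcodes with B cell genes, while the level does. The barcodes with B cell genes serve as a comparison for ITGA1 and ITGAE, and with limits for ITGB7 and ICAM2. The part of free RNA in them was not tested. They carried 662.6 CPM of GZMB and 10.1 CPM of CCR9 themselves, with GZMB UMIs in 6.33% of them after thinning and CCR9 UMIs in 0 of 79. Their 263 raw GZMB UMIs lay in 7 of the 86 barcodes. After thinning, CCR6 UMIs were in 7.59% and CCR7 UMIs in 12.7% of these barcodes, against 4.10% and 18.9% of all CD3E+ cells.

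ITGAL, the alpha chain of LFA-1, was at 252 CPM [239 to 267] in CX3CR1+ and 232 [223 to 241] in GZMB+ cells, whose intervals overlap. TRAV10+ (154) and EOMES+ cells (131) lay near the 142 of all CD3E+ cells, and CCR6+ (98.3), CCR7+ (79.6) and CCR9+ cells (73.3) lay below it. After thinning, 37.8% of GZMB+ cells had an ITGAL UMI against 17.2% of GZMB-negative cells. The share in the cells with B cell genes was 5.06%.

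ITGAE, the alpha chain that binds E-cadherin, was at 61.7 CPM [52.6 to 71.9] in CCR9+ and 61.2 [52.9 to 70.5] in CCR6+ cells, and between 39.0 and 43.7 CPM in the other 5 gates. Its thinned share was 8.50% in CCR9+ against 7.86% in CCR9-negative cells. The cells with B cell genes had 11.4% (9 of 79) after thinning, at a median raw depth of 4137.5 UMIs against 3656 in CD3E+ cells, and 52.9 CPM. The share of CD3E+ cells with ITGAE is therefore not above that of the cells with B cell genes. Whether the latter express ITGAE themselves was not tested, and its differences between gates are given as values without further reading.

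Among the beta chains, ITGB1 was lowest of the 7 gates in CCR9+ cells, at 65.8 CPM [56.4 to 76.3] against 206 [201 to 212] in CCR9-negative cells. CCR6+ cells had 219 CPM, CCR7+ 183, CX3CR1+ 178, GZMB+ 159, TRAV10+ 126 and EOMES+ 107. The intervals of CCR7+, CX3CR1+ and GZMB+ cells overlapped their neighbours', as did those of TRAV10+ and EOMES+ cells. After thinning 6.97% of CCR9+ cells had an ITGB1 UMI, against 24.8% of CCR9-negative cells and 24.1% of CCR6+ cells. Of CCR9+ cells, 81.8% had no raw UMI and 2.92% had 4 or more, up to 11 in a cell. The cells with B cell genes had 373 CPM and a thinned share of 39.2% of their own, above every gate. Without the cells that hold 3 or more B cell UMIs the log2 ratio of the CCR9 gate went from -1.65 [-1.87 to -1.43] to -1.91.

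ITGB2, the beta chain of LFA-1, was at 584 CPM [563 to 605] in CX3CR1+ and 540.4 [527 to 554] in GZMB+ cells. EOMES+ cells had 343, TRAV10+ 251, CCR6+ 179, CCR7+ 155 and CCR9+ cells 126 CPM, and no neighbouring intervals in this order overlapped. Of GZMB+ cells, 82.1% had a raw UMI and 18.4% had 4 or more. After thinning the shares were 66.0% of GZMB+ and 26.0% of GZMB-negative cells, against 25.3% of the cells with B cell genes, a cell type that uses ITGB2 too.

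ITGB7, the gut homing beta chain, was at 171 CPM [156 to 188] in CCR9+ and 158 [144 to 172] in CCR6+ cells, whose intervals overlap, and at 128 in CCR7+ cells. CX3CR1+ (111), GZMB+ (102), TRAV10+ (79.5) and EOMES+ cells (65.5) were lower. After thinning 27.5% of CCR9+ cells had a UMI against 19.7% of CCR9-negative cells. The cells with B cell genes, which may use ITGB7 themselves, had 13.9%. The 13.5% of TRAV10+ and the 10.8% of EOMES+ cells lay below that share and are not read as expression. Nor are they read as its absence, since a cell type that may express the gene cannot set a floor. The 17.1% of GZMB+ and 18.6% of CX3CR1+ cells lay above that share but within its interval [7.16 to 23.5]. This cut was not applied to ITGB1 and ITGB2, for which the cells with B cell genes had 39.2% and 25.3%. ITGB1 lay below its share in every gate, and ITGB2 in CCR9+ (17.0%) and CCR7+ cells (23.9%).

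ICAM2, a ligand of LFA-1 that lymphocytes also carry, was at 249.6 CPM [231 to 269] in CCR9+, 185 [170 to 200] in CCR6+ and 179 [171 to 187] in CCR7+ cells. EOMES+ (139) and TRAV10+ cells (121) lay near the 128 of all CD3E+ cells, and GZMB+ (54.2) and CX3CR1+ cells (43.9) were lowest. After thinning 39.9% of CCR9+ cells had a UMI against 18.0% of CCR9-negative cells, and 8.55% of GZMB+ against 26.2% of GZMB-negative cells. The cells with B cell genes, which may carry ICAM2 themselves, had 6.33% [2.09 to 14.2] and 42.8 CPM. The level and the thinned share of 6.78% in CX3CR1+ cells lay close to these values and are read neither as expression nor as its absence. The 8.55% of GZMB+ cells also lay within that interval.

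Each gate was then compared with the CD3E+ cells outside it. A difference of at least 1.5-fold is named as a size, and the share of all genes with at least 20 expected UMIs that passed the same size is given beside the counts. All 8 genes met that minimum in all 7 gates.

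**Figure D2:**
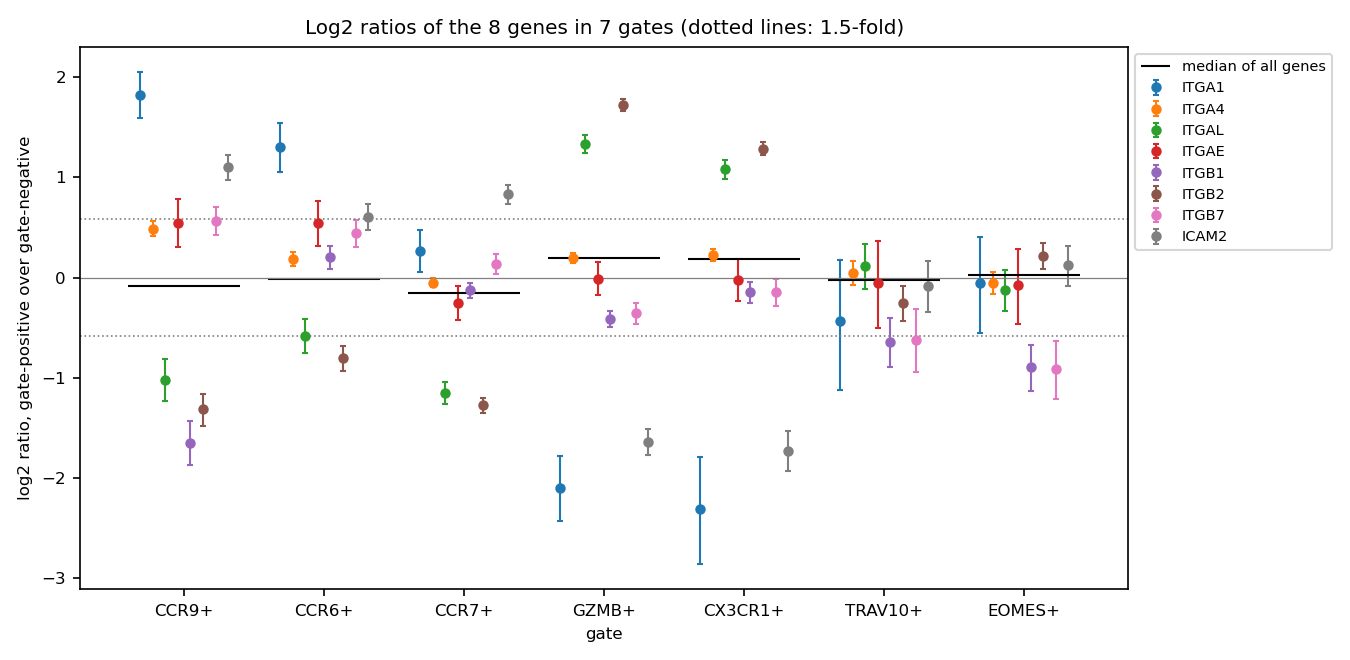
Log2 ratio of CPM in gate-positive over gate-negative cells (y axis) for the 8 genes in each of 7 gates (x axis), with exact 95% intervals, dotted lines at 1.5-fold and a black bar at the median of all genes in that gate. ITGAL and ITGB2 lie above the upper line in GZMB+ and CX3CR1+ cells and below the lower line in CCR9+ and CCR7+ cells, and ITGB1 and ITGB7 lie on opposite sides of 0 in CCR9+ cells.

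In CCR9+ cells ITGA1 (log2 ratio 1.82 [1.59 to 2.05]) and ICAM2 (1.10 [0.98 to 1.22]) were past 1.5-fold higher, 2 of 8 against 2.8% of 7346 genes. The authors' paper names both for its CCR9+ subset of these cells, so that count is not an independent result. ITGB1 (-1.65), ITGB2 (-1.32 [-1.48 to -1.16]) and ITGAL (-1.02 [-1.24 to -0.81]) were past 1.5-fold lower, 3 of 8 against 8.68% of genes. ITGB7 was higher by 0.56 [0.42 to 0.71] and stayed just inside that size, as did ITGAE (0.55) and ITGA4. The gut homing chains ITGA4 and ITGB7 were thus both higher in the cells with the gut chemokine receptor. With CCR9 alone over cells in no gate both came past 1.5-fold, at 0.67 [0.54 to 0.80] and 0.59 [0.34 to 0.84], and ITGB7 also did when thinned (0.83).

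In CCR6+ cells 2 of 8 genes were past that size higher, against 3.31% of 7726 genes. They were ITGA1 (1.30 [1.06 to 1.55]) and ICAM2 (0.60 [0.47 to 0.73]). ITGB2 (-0.81 [-0.93 to -0.68]) was past it lower, 1 of 8 against 4.92% of genes, and ITGAL (-0.58) fell just short. ITGB1 differed from the CCR9 gate: it was higher by 0.20 [0.08 to 0.32]. ICAM2 came inside 1.5-fold under 5 of 13 other settings. Weighted to equal depth, ITGB2 (-0.52) came inside it too, in a gate whose cells were deeper. ITGB1 was at -0.08 with a gate minimum of 2 UMIs and at -0.10 with CCR6 alone over cells in no gate.

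In CCR7+ cells ICAM2 (0.83 [0.74 to 0.92]) was past 1.5-fold higher, 1 of 8 against 5.98% of 9837 genes. ITGAL (-1.15 [-1.26 to -1.04]) and ITGB2 (-1.27 [-1.35 to -1.20]) were past it lower, 2 of 8 against 13.3% of genes. The median of all genes was itself -0.16 in this gate, and ITGB1 (-0.13 [-0.21 to -0.05]) lay near that median, while CCR7 alone over cells in no gate put it past 1.5-fold lower (-0.60). With a gate minimum of 2 UMIs ICAM2 (0.49) came inside 1.5-fold. ITGA1 (0.27 [0.06 to 0.47]) was inside it, and stood at 0.06 [-0.24 to 0.36] with CCR7 alone over cells in no gate. ITGA4 (-0.05) changed sign when the total was taken without ribosomal protein and mitochondrial genes.

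GZMB+ cells showed the reverse of CCR7+ cells for LFA-1 and ICAM2, and these gates shared 168 cells, 7.77% of CCR7+ cells. ITGB2 (1.72 [1.66 to 1.78]) and ITGAL (1.33 [1.24 to 1.42]) were past 1.5-fold higher, 2 of 8 against 18% of 9837 genes. ITGA1 (-2.10 [-2.43 to -1.78]) and ICAM2 (-1.64 [-1.77 to -1.51]) were past it lower, 2 of 8 against 9.02% of genes. The median of all genes was 0.19, and ITGA4 (0.19) lay at it. With the total taken without ribosomal protein and mitochondrial genes, 11.6% of genes were past that size higher and 12.1% lower, and the median was 0.05. That scaling also moved the CCR7 split to 7.86% and 9.47% and the CX3CR1 split to 7.87% and 8.84%, and all 23 member ratios past 1.5-fold stayed past it in the same direction.

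CX3CR1+ cells, nearly all of them GZMB+, gave the same 4 genes at this size. ITGB2 (1.29 [1.22 to 1.35]) and ITGAL (1.08 [0.98 to 1.17]) were higher, 2 of 8 against 12.8% of 8691 genes, and ITGA1 (-2.31 [-2.86 to -1.80]) and ICAM2 (-1.73 [-1.93 to -1.53]) lower, 2 of 8 against 6.74%. Within GZMB+ cells, the 1163 with CX3CR1 UMIs over the 1607 without them differed less: 0.26 for ITGB2 and 0.26 for ITGAL. ICAM2 and ITGA1 are not compared there, since their shares in CX3CR1+ cells are not read as expression. ITGB1 and ITGB7 were slightly higher in the former, by 0.27 and 0.22.

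TRAV10+ and EOMES+ cells had 0 of 8 genes past 1.5-fold higher, against 1.44% of 5006 and 2.38% of 5999 genes. In both gates 2 of 8 were past it lower, and they were the beta chains ITGB1 and ITGB7, against 3.92% and 3.18% of genes. The log2 ratios were -0.64 [-0.90 to -0.40] and -0.62 [-0.94 to -0.31] in TRAV10+ cells, and -0.90 [-1.13 to -0.67] and -0.92 [-1.21 to -0.63] in EOMES+ cells. The TRAV10 ratios are the less firm ones: thinned to 2000 UMIs, both came inside 1.5-fold. ITGA4 differed by 0.05 [-0.08 to 0.17] in the TRAV10 gate, and ITGAE had too few UMIs in EOMES+ cells (65) to bound its ratio more closely than -0.46 to 0.28.

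Since the gates overlap, cells in exactly 1 gate were also set against the 1745 cells in none, with GZMB and CX3CR1 counted as 1 gate. ITGB1 stood at 40.7 CPM [28.3 to 56.6] in the 185 cells with CCR9 alone, 273 with CCR6 alone, 194 with CCR7 alone, 161 with GZMB or CX3CR1 and 293 [280 to 306] in none. The log2 ratio of CCR9 alone over none was -2.85 [-3.37 to -2.37], and over CCR7 alone -2.25 [-2.78 to -1.77]. With GZMB or CX3CR1 alone, ITGB2 was at 585 CPM against 190.4 in none, and ICAM2 at 40.0 against 138. The EOMES alone cells (115) had 45.7 CPM of ITGB7 and the TRAV10 alone cells (95) 49.4, against 128 in none. ICAM2 with CCR7 alone was at 168.5 CPM, a log2 ratio of 0.28 [0.16 to 0.41] over none and so inside 1.5-fold. ITGB2 with CCR6 alone was at 193 CPM, level with none. The lower ITGB2 of CCR6+ cells was therefore not seen once cells in any other gate were left out of both groups. Which of the gates left out matters for this was not tested.

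The 2 chemokine receptor gates with most ITGA1 parted at ITGB1. With the 95 cells in both left out, 384 CCR9+ cells over 462 CCR6+ cells gave a log2 ratio of -2.11 [-2.41 to -1.83] for ITGB1, from 118 UMIs. ITGB2 (-0.67 [-0.91 to -0.44]) and ITGAL (-0.52 [-0.82 to -0.22]) were also lower in CCR9+ cells. ITGA1 (0.61 [0.23 to 0.98]), ICAM2 (0.55 [0.37 to 0.74]) and ITGA4 (0.35 [0.24 to 0.46]) were higher, and ITGB7 (0.15 [-0.06 to 0.36]) and ITGAE (-0.05 [-0.43 to 0.34]) could not be told apart at this depth.

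Low ITGB1 went with the number of CCR9 UMIs in a cell. The level was 206 CPM in cells with no CCR9 UMI, 78.8 [65.0 to 94.7] with 1, 62.4 with 2 and 33.5 [19.5 to 53.6] with 3 or more, from 17 UMIs in 90 cells. ITGA1 went from 21.8 CPM without CCR9 to 118 [90.1 to 152] with 3 or more UMIs, and 71.2 and 59.5 lay between, their order unresolved. ICAM2 went from 116 to 233 with 1 UMI and 269 with 2, and was 269.6 with 3 or more. Within the CCR9+ cells, the 205 with CCR7 had more ITGB1 than the 274 without it (log2 ratio 0.80 [0.35 to 1.26]) and less ITGA1 (-1.09 [-1.55 to -0.64]).

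**Figure D3:**
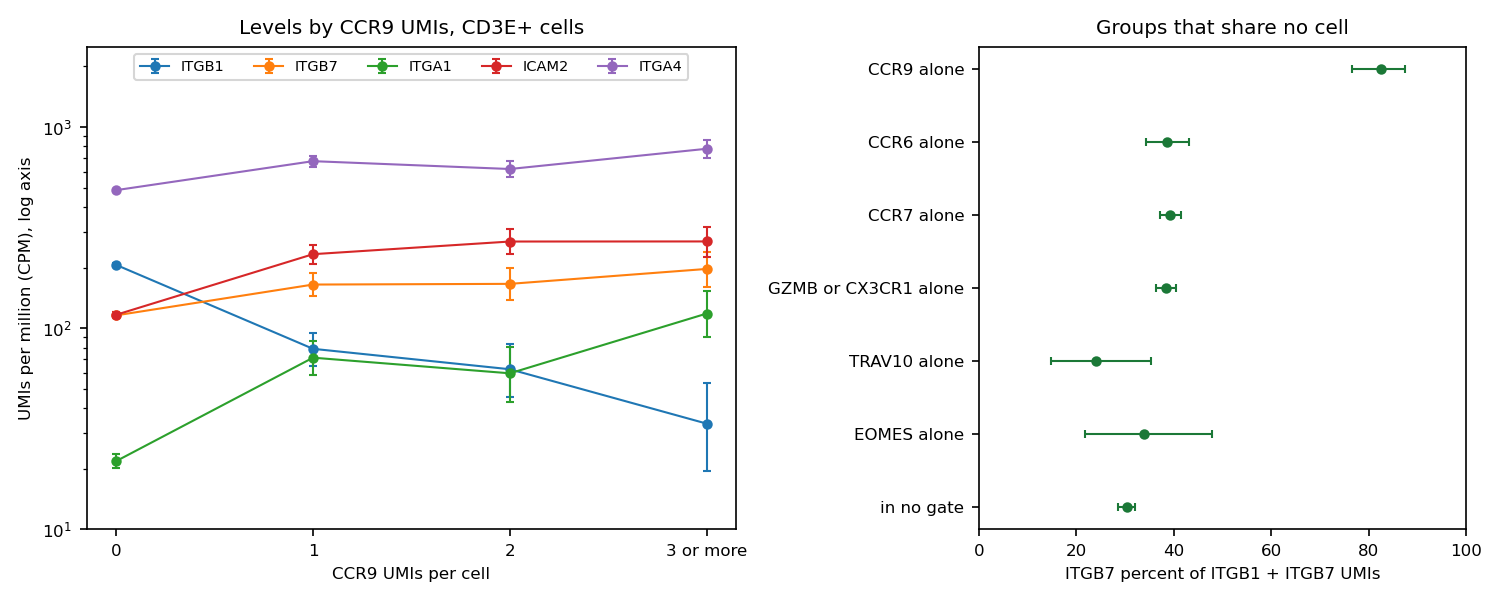
Left, CPM (log axis) of 5 genes in CD3E+ cells with 0, 1, 2 or at least 3 CCR9 UMIs, with exact 95% Poisson intervals: ITGB1 goes from 206 to 33.5 CPM while ITGA1 goes from 21.8 to 118. Right, ITGB7 as a percentage of ITGB1 and ITGB7 UMIs in 7 groups that share no cell, with exact 95% binomial intervals: CCR9 alone stands at 82.6%, and the other 6 groups between 24.0% and 39.4%.

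The choice of beta chain was read as the share of ITGB7 in the sum of ITGB1 and ITGB7 UMIs. The transcripts of different genes may be captured unequally, so the share is compared between groups and not read as a ratio of molecules. It was 72.2% [68.5 to 75.7] in CCR9+ cells (455 ITGB7 and 175 ITGB1 UMIs) and 35.9% [34.9 to 37.0] in CCR9-negative cells. The other gates lay close together, at 41.8% in CCR6+, 41.2% in CCR7+, 39.0% in GZMB+, 38.3% in CX3CR1+, 38.8% in TRAV10+ and 38.1% in EOMES+ cells. The values of TRAV10+ and EOMES+ cells rest on ITGB7 levels that are not read as expression. Among the groups that share no cell, TRAV10 alone was at 24.0% [14.9 to 35.3] from 18 ITGB7 UMIs, an interval that includes the 30.4% of cells in no gate. Cell by cell after thinning, ITGB7 was found in 28.1% [13.7 to 46.7] of 32 CCR9+ cells with ITGB1 and 27.4% [23.2 to 31.9] without it. In CCR6+ cells these shares were 38.5% and 25.7%, in all CD3E+ cells 22.5% and 19.5%, and with CCR9 alone 10.0% of 10 cells and 28.1%. The pooled share is therefore not read as a choice made within cells.

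Pairs of chains were then read cell by cell in 6935 thinned CD3E+ cells. A cell with UMIs of both chains has the transcripts of a known heterodimer, which is no measure of the receptor on its surface. ITGA4 and ITGB7 were found together in 20.04% [16.5 to 24.0] of CCR9+ cells and 18.9% [15.7 to 22.5] of CCR6+ cells, against 10.9% [10.1 to 11.7] of CCR9-negative cells. Without thinning the shares were 52.8% of CCR9+ and 24.3% of CCR9-negative cells. After thinning, the product of the chains' own shares was 19.6% in CCR9+, 17.7% in CCR6+ and 10.9% in CCR9-negative cells. Each product lay within the interval of the share found. In thinned CCR9+ cells ITGB7 was found in 28.1% [23.3 to 33.3] with ITGA4 and 25.8% [18.5 to 34.1] without it. The shares with both chains are therefore not read as pairing beyond the chains' separate levels. ITGA4 and ITGB1 were found together in 4.58% [2.85 to 6.91] of CCR9+ cells against 13.0% [12.2 to 13.9] of CCR9-negative, and in 15.5% of GZMB+ cells. Raw shares were 17.3% and 26.8%.

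Among thinned CCR9+ cells with an ITGA4 UMI (327), 26.3% had ITGB7 without ITGB1, 4.59% had ITGB1 without ITGB7, 1.83% had both and 67.3% had neither. For GZMB+ cells the same shares were 12.1%, 19.9%, 4.52% and 63.4%, so that the gates differed in which beta chain was seen beside ITGA4. In thinned CCR9+ cells ITGB1 was found in 6.42% [4.02 to 9.65] with ITGA4 and 8.33% [4.23 to 14.4] without it. The split therefore does not show which partner ITGA4 has. In CCR6+ cells 22.0% had ITGB7 without ITGB1, 11.4% ITGB1 without ITGB7, and 8.73% had both. EOMES+ cells most often showed neither beta chain, in 77.1% of those with ITGA4.

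ITGAL and ITGB2, the chains of LFA-1, were found together in 25.7% [24.0 to 27.4] of thinned GZMB+ cells and 28.3% [25.8 to 31.0] of CX3CR1+ cells, against 5.54% [4.87 to 6.27] of GZMB-negative cells. In CCR9+ cells the share was 3.49%, in CCR7+ cells 4.22% and in CCR6+ cells 5.75%. Raw shares in GZMB+ and GZMB-negative cells were 47.4% and 15.5%. Over all CD3E+ cells ITGB2 was found in 52.8% of cells with ITGAL and 37.5% of cells without it. Within GZMB-negative cells the same shares were 32.2% [28.9 to 35.8] and 24.7% [23.3 to 26.1]. Within GZMB+ cells they were 67.9% [64.9 to 70.7] and 64.9% [62.5 to 67.2], and within CX3CR1+ cells 70.1% and 67.3%. Over all cells the shares thus lay further apart than within either GZMB gate.

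ITGA1 and ITGB1 were found together in 0.649% of thinned CD3E+ cells (45 cells). ITGB1 was found in 15.2% [11.3 to 19.7] of cells with ITGA1 and in 24.0% [23.0 to 25.1] of cells without it. In CCR9+ cells, where ITGA1 was highest, ITGB1 was found in 5.08% of 59 cells with ITGA1 and 7.25% of cells without it. In the cells in no gate the shares were 22.5% [13.5 to 34.0] and 31.9% [29.5 to 34.3]. In CCR9+ cells ITGA1 was thus high where its partner chain was low at the RNA level. ITGAE and ITGB7 were found together in 104 of 6935 cells, between 1.17% and 3.15% over the gates. The share with ITGAE was not above that in the cells with B cell genes.

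**Figure D4:**
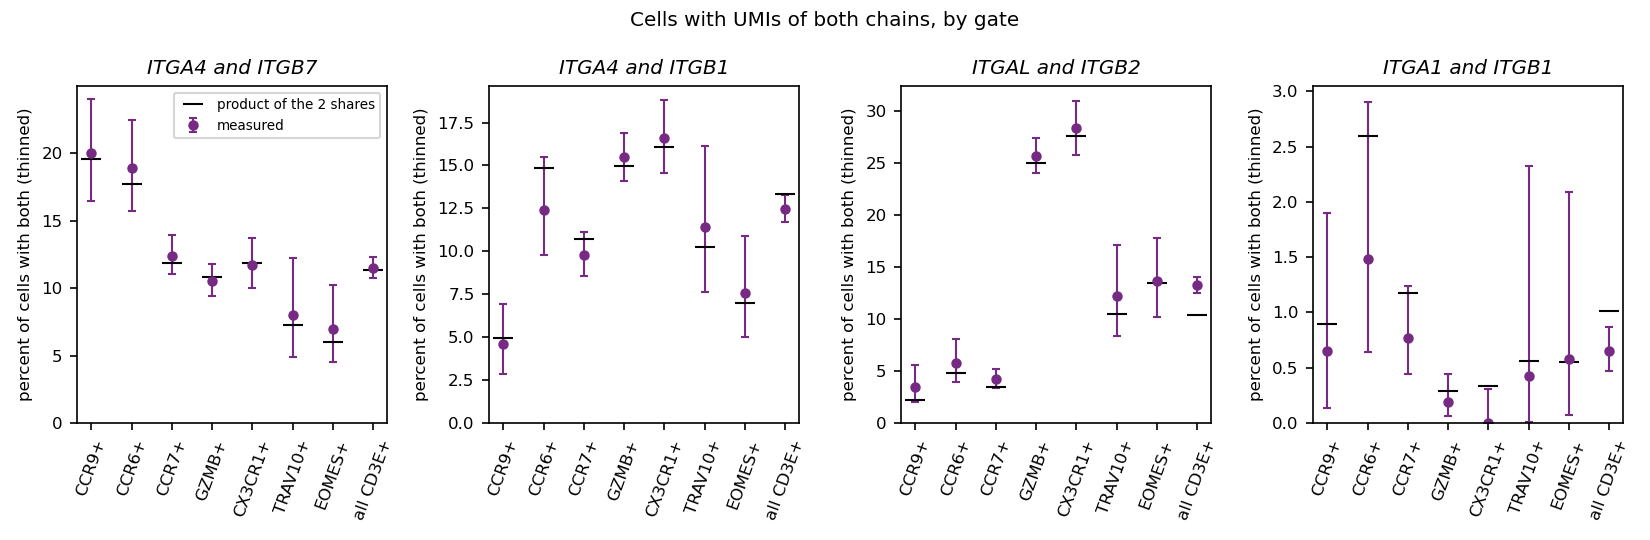
Percent of thinned CD3E+ cells with UMIs of both chains of 4 pairs (y axis, from 0) in 7 gates and in all CD3E+ cells (x axis), with exact 95% binomial intervals, and black bars at the product of the 2 chains' own shares. ITGA4 with ITGB7 is highest in CCR9+ cells (20.04%), near the product (19.6%). ITGAL with ITGB2 is highest in CX3CR1+ cells (28.3%). ITGAL with ITGB2 lies near the product in GZMB+ cells (25.7% and 24.97%) and above it in all CD3E+ cells (13.3% and 10.4%).

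ICAM2 and its receptor chains ran against each other over all cells. ITGB2 was found in 27.9% [25.5 to 30.4] of thinned cells with ICAM2 and 44.5% [43.2 to 45.9] of cells without it, and ITGAL in 17.2% and 27.0%. Within CCR9+ cells the ITGB2 shares were 16.4% and 17.4%, which differ by less than their intervals. Within GZMB+ cells they were 59.9% [53.2 to 66.3] and 66.6% [64.7 to 68.4], and for ITGAL 29.5% [23.7 to 35.9] and 38.6% [36.7 to 40.6]. In cells with GZMB or CX3CR1 and no other gate gene the ITGB2 shares were 67.7% of 167 cells with ICAM2 and 67.9% of 2193 cells without it. The ITGAL shares there were 28.7% [22.0 to 36.2] and 39.1% [37.0 to 41.2]. In cells in no gate they were 15.7% and 22.6% for ITGAL, and 23.9% [19.5 to 28.7] and 30.4% [27.9 to 33.1] for ITGB2. With CCR7 alone they were 13.0% and 11.5% for ITGAL, and 16.4% and 21.1% for ITGB2.

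Cytotoxic cells among the TRAV10+ and EOMES+ gates carried the pattern of GZMB+ cells in part. The 84 GZMB+TRAV10+ cells over the 163 GZMB-negative TRAV10+ cells had a log2 ratio of 1.17 [0.81 to 1.52] for ITGB2 and -1.50 [-2.22 to -0.84] for ICAM2. ITGAL differed by 0.32 [-0.13 to 0.78], which is within counting error. In EOMES+ cells, 112 with GZMB over 244 without it gave 0.54 [0.29 to 0.80] for ITGB2, 0.42 [0.01 to 0.83] for ITGAL and -0.88 [-1.35 to -0.43] for ICAM2. The beta chains ITGB1 (0.50 [0.04 to 0.95]) and ITGB7 (0.65 [0.06 to 1.24], past 1.5-fold) were higher in those with GZMB. In the GZMB gate of all CD3E+ cells both ran the other way, at -0.42 and -0.36.

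The antibody tags gave a second readout of the same cells. The CD4 tag had a median of 481 UMIs in CCR9+, 474 in CCR6+, 316 in GZMB+ and 387 in all CD3E+ cells, and the CD8 tag 477, 528, 353.5 and 342. Over 4 groups of cells of equal size ordered by the CD4 tag, ITGB2 was at 473 CPM in the lowest and 219 in the highest group, and ITGAL at 189.6 and 124. ITGA1 went from 9.82 to 35.7 CPM, ICAM2 from 77.0 to 155 and ITGB1 from 158 to 215, while ITGA4 stayed between 483 and 524. Ordered by the CD8 tag, ITGA4 went from 425 [409 to 441] in the lowest to 532 [518 to 547] in the highest group. ICAM2 went from 102 to 155 there, ITGA1 from 20.9 to 28.7, ITGB1 from 195 to 202, ITGB2 from 288 to 259 and ITGAL from 131 to 129. Median gene UMIs rose from 3065 in the lowest to 4871.5 in the highest group by the CD4 tag, and from 3364.5 to 4594 by the CD8 tag. The part of depth was not tested.

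Of the other integrin chains, 17 of 19 were found by symbol (ITGAD and ITGB3 were not) and 4 had at least 50 UMIs in CD3E+ cells: ITGA6, ITGA5, ITGAX and ITGAV. ITGA6, a laminin receptor chain that also pairs with ITGB1, was at 13.9 CPM in GZMB+ and 90.7 in GZMB-negative cells (log2 ratio -2.71 [-2.96 to -2.47]), and higher by 1.28 in CCR7+ cells. In CCR9+ and CCR9-negative cells it stood at 63.2 and 63.3 CPM (log2 interval -0.24 to 0.23). ITGAV (1.34) and ITGAX (1.14) were higher in GZMB+ cells. Past 1.5-fold higher and lower were 2 and 1 of 4 chains in GZMB+ cells (18% and 9.02% of all genes), 1 and 2 in CCR7+ cells (5.98% and 13.3%) and 1 and 1 in CX3CR1+ cells (12.8% and 6.74%). In the other 4 gates 2 chains had enough UMIs to be read, and ITGA6 in TRAV10+ cells (-0.69) was the single one past that size. ITGAX, a further partner of ITGB2, was at 22.5 CPM in EOMES+ and 4.06 in EOMES-negative cells, from 35 and 116 UMIs, below the minimum of 20 expected UMIs. ITGAM, the alpha chain of the myeloid integrin, had 26 UMIs in all, 25 of them in GZMB+ cells. It is named after its values were seen.

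Among 9 other ligands ICAM3 and ICAM1 had 50 UMIs or more, and VCAM1, MADCAM1, CDH1, FN1, ICAM4 and ICAM5 had 0. ICAM3 stayed within 1.5-fold in every gate, with -0.30 in CCR9+ and CCR7+ and 0.24 in GZMB+ cells. The opposite levels of ICAM2 in those gates were therefore not shared by ICAM3. F11R, a junctional ligand of LFA-1 with 40 UMIs and so below the minimum of 50, had 11 UMIs in CCR9+ cells (4.14 CPM against 1.06) and 2 in GZMB+ cells (0.186 against 1.96, a log2 ratio of -3.39 [-6.49 to -1.44]). These values lay in the direction of those of ICAM2.

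Genes of inside-out activation act on the switch of integrins between a folded and an open state, and the 18 listed hold both activators and inhibitors of it (SHARPIN, ITGB1BP1, SIPA1). Of these 17 had at least 50 UMIs. In GZMB+ cells 8 were past 1.5-fold higher and 0 lower, against 18% and 9.02% of all genes, with a median log2 ratio of 0.56 against 0.19. The 8 were PXN, RAP1B, FLNA, APBB1IP, ILK, VCL, TLN1 and the inhibitor ITGB1BP1. In CX3CR1+ cells 6 were higher and 0 lower, against 12.8% and 6.74%. In CCR7+ cells 7 were lower and 0 higher, against 13.3% and 5.98% (median -0.47 against -0.16), and in CCR9+ cells 4 were lower and 0 higher, against 8.68% and 2.8% (median -0.37 against -0.08). In CCR6+ cells 2 were lower against 4.92% of genes, and in TRAV10+ and EOMES+ cells 1 each against 3.92% and 3.18%. The last 3 are few genes and are not read as a group. PXN, the focal adhesion adaptor paxillin, had the largest ratio of these in GZMB+ cells (2.13 [1.96 to 2.30]), followed by RAP1B (1.38), the GTPase that triggers activation, FLNA (1.11), an actin crosslinker that competes with talin for beta chains, and APBB1IP (0.94), the RAP1 effector that recruits talin. In CCR9+ cells PXN was at -1.21 [-1.63 to -0.83], FLNA at -0.74, RAP1B at -0.71 and VCL, the talin-bound vinculin, at -0.82 [-1.51 to -0.21].

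A pair of other homing receptors is given as examples, named for their ratios and not standing for the listed genes. GPR15, a colon homing receptor with 180 UMIs, was higher by 1.45 [1.01 to 1.91] in CCR7+ cells. CXCR6, a receptor of tissue resident and effector T cells, was at 2.82 CPM in CCR7+ against 12.9 in CCR7-negative cells, and at 14.7 in GZMB+ against 6.40 in GZMB-negative cells.

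The likeness of gene patterns was measured as Pearson's r of log2(CPM + 10) over the 7 groups that share no cell, among 5267 genes with at least 500 UMIs. All points come from the same library, and 7 points allow high values by many genes: 352 genes had r over 0.9 with ITGB2 and 335 with ITGAL, against 25 with ITGA1, 41 with ITGB7, 39 with ICAM2, 18 with ITGA4, 7 with ITGAE and 6 with ITGB1. The genes most like ITGB2 were BNIP3L, JAKMIP1 and SERTAD1 (0.99 each), and those most like ITGAL were GBP3, GUK1 and FAM210B (0.99 each). ICAM2 was most like PDCD4 (0.97), JUN (0.97) and RSBN1 (0.96), and ITGA1 most like MYC (0.96), KIF5B (0.95) and H1FX (0.95). ITGB1 had SUCLG2 (0.94), NFU1 (0.94) and JAK3 (0.92), and ITGB7 had POLR3C (0.98), USO1 (0.97) and HSD17B11 (0.97). Among the 8 genes themselves, r was 0.92 for ITGAL with ITGB2, 0.89 for ITGA1 with ICAM2, -0.87 for ICAM2 with ITGB2 and 0.04 for ITGB1 with ITGB7.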

How the data were processed

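The authors mapped the reads to Mmul_10 with Cell Ranger 3.1.0 and STAR 2.5.1b, per the labels, and deposited raw UMI counts of 35432 genes and 2 tags in 7923 barcodes, without normalization. The sources used here give no annotation release. The 7601 barcodes kept had between 200 and 4000 genes, with mitochondrial UMIs up to 20%, and 2 features without a symbol that stand among the 13 named mitochondrial genes were counted as mitochondrial, with the number of cells this leaves known. Gates, chain pairs and gene lists were chosen with earlier results of these data known. The genes named are the 8 members, the gate genes, 4 lists (the members of a list with the highest level or largest ratio) and the 3 genes most like each member.

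UMIs were summed per group and divided by the group's total (CPM). Intervals at 95% are exact: Poisson for CPM, Clopper-Pearson for shares, and the binomial split for log2 ratios. A count of 0 is read as an upper limit of 3 counts, and for the thinned share of ITGA1 as the upper end of the exact interval. Thinning to 2000 UMIs (seed 1) left out 376 of 7311 CD3E+ cells. Scrublet's own threshold (scanpy 1.11.5) found 0 doublets in 7601 cells and is taken to have failed; none was removed. An alternative left out the cells with the highest 5% of scores. Other alternatives changed the filters, T cell gate, gate minimum, gate overlap, depth weighting, scaling and pseudocount. The ratio of the CCR9 gate was run on simulated Poisson counts with known folds. These hold no spread between cells, so they cannot show how the intervals behave with it. Python 3.11.15, numpy 2.4.6, scipy 1.17.1 and pandas 2.3.3 were used. Some listed genes and sequences are not reported here.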

Additional observations from a re-analysis of the deposited data

How the results depend on the processing

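Of 114 values of the 9 main results under other settings, 91 lay within the main value's 95% interval, 23 moved beyond it and of those past 1.5-fold 0 changed direction. Set as cells in 1 gate alone over cells in none, the log2 ratio was 0.92 for ICAM2 in CCR9, 1.04 for ITGA1 in CCR6, -0.60 for ITGB1 in CCR7, 1.11 for ITGAL in GZMB, 1.74 for ITGB2 in CX3CR1 and -0.19 for ITGA4 in TRAV10. Weighted to equal depth, it was 0.95 for ICAM2, 1.20 for ITGAL and 1.19 for ITGB2. Thinned to 2000 UMIs, it was 0.83 for ITGB7 in CCR9, 1.35 for ICAM2 and 1.73 for ITGA1. As a mean over cells, it was 0.75 for ITGB7, 1.30 for ICAM2 and 1.20 for ITGB2. On a total without ribosomal protein and mitochondrial genes, it was -0.017 for ITGB1, 1.18 for ITGAL and 1.16 for ITGB2. ITGA1 was at 1.02 with CPM + 10, ITGB1 at -0.25 with a gate minimum of 2 UMIs, and ITGB2 at 1.36 without the highest doublet scores. The share with ITGA4 and ITGB7 in CCR9+ cells was 52.8% without thinning and 30.8% at 3000 UMIs, as more UMIs per cell are read. The causes of the other moves were not tested.

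Of 624 values of the other 48 ratios, 106 moved and 1 past 1.5-fold changed direction: ITGB2 in CCR6 alone over cells in none was 0.018. Leaving out cells with B cell UMIs, and all settings for these 48 ratios, were chosen after seeing the data. Of 23 ratios past 1.5-fold, between 20 and 23 stayed past it under each setting, and between 0 and 7 further ratios came past it. ICAM2 in CCR6+ cells left it most often, under 5 of 13 settings. No paired analysis was possible because there is 1 animal and no result comes from a test. The depth limits ITGA1 and ITGAE most, as most cells hold no UMI of either.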
